A study of Mus musculus with 8 samples.

Results

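Dorsal root ganglia (DRG) hold the cell bodies of somatosensory neurons together with their glia. When the peripheral axon of such a neuron is cut, the neuron switches on a set of genes that accompanies axon regrowth, and part of that set is also in use in the embryo while the axons first grow. Stress kinases of the JNK family act on the AP-1 subunit Jun, which works with Atf3 and other transcription factors, while growth cone proteins, stress sensors and secreted signals are made alongside them. The genes described here are 10 members of that set: the transcription factors Atf3, Jun and Sox11, the stress gene Gadd45a, the cytoskeletal and growth cone genes Gap43, Stmn4 and Sprr1a, the adhesion receptor Flrt3, and the secreted proteins Csf1 and Reg3b. They were listed by name, as genes that DRG neurons are known to raise after axon injury or during axon growth. No threshold on measured values was part of the rule, although earlier results of these data were known when the list was drawn up. All 10 were among the 55414 Ensembl genes counted, and 9 of them were among the 17721 genes with enough reads to be tested.

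The members were followed in a bulk RNA-sequencing experiment on DRG of E18.5 mouse embryos with 4 libraries per group. The AD1 OE libraries had the genotype AdvillinCre/+;Rosa26Dach1/+, in which Cre made from an Advillin allele, active in sensory neurons, removes a stop cassette and so switches on a Dach1 transgene at the Rosa26 locus. The Control libraries were Advillin+/+;Rosa26Dach1/+, so both groups carried 1 copy of the transgene, which without Cre stays behind its stop cassette, and the labels name no injury in either group. Dach1 is a transcriptional regulator, and the comparison asks which transcripts differ when it is expressed across sensory neurons late in embryonic development. The paper reports that Dach1 was restricted normally at first in these embryos and became broad again only later. The groups also differed in the Cre protein and in an Advillin allele, whose part cannot be told apart from that of Dach1. The Rosa26Dach1 mice were of mixed C57Bl/6J and CD1 background. The study counts its samples in embryos, so p-values measure the spread between embryos as well as between libraries.

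Libraries held 22340258 to 44025625 counts in AD1 OE and 22339059 to 35722057 in Control (exact permutation test, two-sided, p = 0.83). Levels are given as CPM, the counts scaled to a common library size with TMM factors, and a gene was called when its adjusted p in edgeR's quasi-likelihood test was under 0.005 with a log2 fold change beyond 0.25 in either direction, the limits the study used for this comparison. By that rule 455 of the 17721 tested genes (2.57%) were called, 139 of them higher (0.784%) and 316 lower (1.78%) in AD1 OE. Dach1 itself stood at 95.9 ± 5.28 CPM (SD, n = 4) in AD1 OE and at 32.6 ± 1.64 CPM (n = 4) in Control (log2 fold change 1.56, SE 0.05, edgeR adjusted p = 1.77e-08). The 8 sensory neuron markers and the 8 markers of Schwann cells and satellite glia were all measured. Sex-linked transcripts showed AD1 OE libraries 1, 2 and 4 and Control library 4 to be male and the other libraries to be female, so sex was uneven between the groups, and the difference within each sex is given, untested, for each tested member.

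Of the 9 tested members, 2 were called higher in AD1 OE, Reg3b and Sox11, and none was called lower. Flrt3 was higher in every AD1 OE library than in every Control library without passing the call. The groups did not overlap for these 3 members, against 13.0% of all tested genes in either direction. Atf3, Jun, Gadd45a, Csf1, Gap43 and Stmn4 overlapped between the groups, and Sprr1a was at or near 0 counts throughout. At an adjusted p under 0.05, which 6.55% of tested genes reached in either direction and 2.42% reached upwards, 3 members were higher (Reg3b, Sox11 and Flrt3) and none lower. The median log2 fold change was 0.11 over the 9 tested members and 0.002 over all tested genes.

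The promoters of 3 members are shown, because Reg3b and Sox11 carried the differences and Sprr1a was the member with almost no reads. Each is the 250 bases before the RefSeq start site on GRCm38.p6, read 5′ to 3′ along the strand of the gene. Capitals mark matches on either strand to the AP-1 site TGANTCA, the cAMP response element TGACGTCA or the TATA box TATAAA, none of which overlapped another. Reg3b is at chr6:78370635-78370884 on the plus strand, Sox11 at chr12:27342719-27342968 on the minus strand and Sprr1a at chr3:92485882-92486131 on the minus strand.
Reg3b: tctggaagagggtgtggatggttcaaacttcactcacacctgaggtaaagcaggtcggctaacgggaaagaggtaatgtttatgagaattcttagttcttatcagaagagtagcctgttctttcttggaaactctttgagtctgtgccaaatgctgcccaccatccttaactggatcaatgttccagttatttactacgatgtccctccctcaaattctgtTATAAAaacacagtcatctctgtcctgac
Sox11: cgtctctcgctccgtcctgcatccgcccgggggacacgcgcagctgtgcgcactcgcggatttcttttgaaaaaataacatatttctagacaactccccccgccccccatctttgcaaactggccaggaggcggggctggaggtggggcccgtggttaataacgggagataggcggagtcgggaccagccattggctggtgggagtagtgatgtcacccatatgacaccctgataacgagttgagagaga
Sprr1a: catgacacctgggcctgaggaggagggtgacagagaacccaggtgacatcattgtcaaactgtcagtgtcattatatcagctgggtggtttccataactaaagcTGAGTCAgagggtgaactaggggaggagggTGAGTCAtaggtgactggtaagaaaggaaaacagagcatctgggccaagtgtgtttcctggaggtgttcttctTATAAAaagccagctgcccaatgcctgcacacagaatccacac

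Sprr1a held the AP-1 letters TGAGTCA at 2 places, starting 146 and 116 bases before the start site, and TATAAA 43 bases before it. Reg3b held TATAAA 29 bases before its start site and no AP-1 match. Sox11 held none of the 3 motifs, and its window had 58% G and C bases against 42.8% in Reg3b and 49.6% in Sprr1a. RefSeq gave such a window for 8 of the 10 members. Among those, the AP-1 letters were found in Sprr1a only, against 6.75% of 32851 mouse promoters of this length, and the cAMP response element was found in none of the 8, against 1.55%. The TATA letters were in 2 of the 8 members and in 12.4% of promoters. A match describes the letters of the window and does not show that a factor binds there. Only these exact letters were searched, so variants of a motif were not counted, and a window without a match may hold one.

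**Figure D1:**
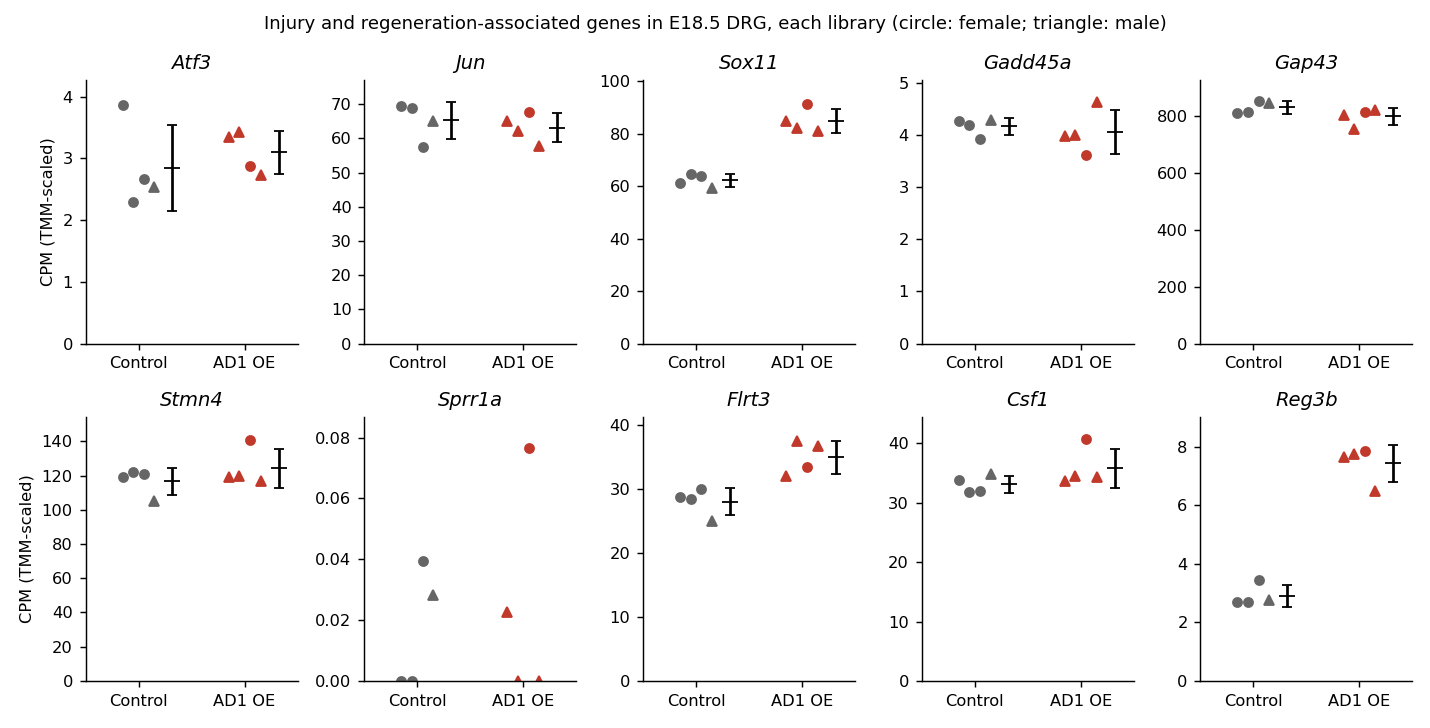
Level of each of the 10 members in every library, in TMM-scaled CPM on a linear axis from 0, with the Control libraries in grey and the AD1 OE libraries in red, circles for female and triangles for male libraries, and a black bar for the mean ± SD of 4 libraries (not drawn for Sprr1a). Reg3b, Sox11 and Flrt3 are separated between the groups, Reg3b at 6.48 to 7.84 CPM against 2.68 to 3.46, while the other members overlap.

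Among the transcription factors, Sox11 was the member that rose. Sox11 is an HMG-box factor of the SoxC group that is high in growing embryonic sensory neurons and is induced again after axon injury. It measured 85.0, 82.2, 91.6 and 81.0 CPM in AD1 OE replicates 1 to 4 and 61.4, 64.6, 63.9 and 59.3 CPM in Control replicates 1 to 4. All AD1 OE libraries lay above all Control libraries. The means were 84.9 ± 4.72 and 62.3 ± 2.43 CPM (SD, n = 4 each), a log2 fold change of 0.45 (SE 0.05, 95% interval 0.34 to 0.55, edgeR adjusted p = 1.05e-04), or 1.36 times the Control level (1.27 to 1.46). Within sex the difference had the same direction, with 91.6 against 63.3 CPM in females and 82.7 against 59.3 CPM in males (1 AD1 OE and 3 Control females, 3 AD1 OE and 1 Control male, not tested). The tissue is a mixture of cells, so more cells of a type and more RNA per cell cannot be told apart for Sox11 or for any other gene here.

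The other SoxC genes did not pass the call. Sox4 stood at 105 ± 6.38 CPM in AD1 OE against 116 ± 5.86 in Control (log2 fold change -0.14, edgeR adjusted p = 0.131), and Sox12 at 75.1 ± 4.23 and 75.0 ± 2.77 CPM (0.003, adjusted p = 0.985). Within each library, the log2 ratio of Sox11 to Sox4 was -0.30 ± 0.05 in AD1 OE against -0.90 ± 0.08 in Control, and that of Sox11 to Sox12 was 0.18 ± 0.02 against -0.27 ± 0.09. These differences of 0.59 and 0.44 had no overlap between groups. They reached the smallest two-sided p that 4 against 4 libraries allow (exact permutation test, p = 0.0286, or 0.105 after adjustment over 11 such ratios of members to their paralogs). A single ratio without overlap could not pass that adjustment, so the adjusted value does not decide whether a ratio differed. The ratios were added after the data were seen and in large part repeat the difference of Sox11 itself. Of the exon bases of Sox4, 54.6% are shared with a long noncoding RNA gene on the other strand, and the strand setting of the counting is not given in the sources used here.

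Atf3 is a bZIP factor that is almost silent in uninjured sensory neurons and is a standard marker of axotomy. Its levels were 3.35, 3.43, 2.87 and 2.73 CPM in AD1 OE and 3.87, 2.30, 2.67 and 2.54 in Control. The Control libraries spanned the whole AD1 OE range, and the means were 3.09 ± 0.345 and 2.85 ± 0.698 CPM (log2 fold change 0.14, 95% interval -0.22 to 0.50, edgeR adjusted p = 0.724). The log2 fold change was 0.31 without Control replicate 1, the highest library, and 0.05 without Control replicate 2, the lowest, with adjusted p of 0.276 and 0.939. Within sex the log2 difference of Atf3 was -0.04 in females and 0.32 in males. Jun, the AP-1 subunit phosphorylated by JNK, measured 65.0, 62.0, 67.6 and 57.8 CPM in AD1 OE and 69.4, 68.9, 57.5 and 65.2 in Control. The groups overlapped, with means of 63.1 ± 4.22 and 65.3 ± 5.48 CPM (log2 fold change -0.05, interval -0.19 to 0.09, edgeR adjusted p = 0.756), so a rise of Jun beyond 0.09 on the log2 scale lay outside the 95% interval. Within sex its log2 difference was 0.05 in females and -0.08 in males, and leaving out 1 library moved the fold change between -0.10 (without Control replicate 3) and -0.004 (without AD1 OE replicate 4). Jun shares 7.28% of its exon bases with the antisense gene Junos, and reads of the pair cannot be told apart if strand was not used.

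Reg3b had the largest difference of the 9 tested members. It encodes a small secreted C-type lectin of the Reg family, best known as an antibacterial protein of the gut and as an acute-phase protein of the pancreas, and it is also made by sensory and motor neurons after nerve injury. It was at 7.64, 7.75, 7.84 and 6.48 CPM in AD1 OE and at 2.70, 2.68, 3.46 and 2.77 in Control. The lowest AD1 OE library stood well above the highest Control library. The counts behind these levels ranged from 174 to 338 reads in AD1 OE and from 60 to 98 in Control. The means were 7.43 ± 0.640 and 2.90 ± 0.374 CPM, a log2 fold change of 1.36 (SE 0.11, 95% interval 1.11 to 1.60, edgeR adjusted p = 1.56e-05), or 2.56 times the Control level (2.17 to 3.04). The log2 difference was 1.41 within females and 1.40 within males.

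Reg3b was the only Reg gene with more than a trace of reads. Reg1, Reg2 and Reg3g had 0 counts in all 8 libraries, while Reg3a reached at most 5 counts and Reg3d and Reg4 at most 2 counts in any library. As for Sox11 and Flrt3, no stretch of 50 bases of the Reg3b transcripts occurred in the transcripts of another gene of the annotation, so reads of that length matching exactly could be assigned to it. Extl3, which encodes a receptor for Reg proteins, stood at 217 ± 14.8 CPM in AD1 OE against 182 ± 9.99 in Control (log2 fold change 0.25, edgeR adjusted p = 0.0142). It was higher without overlap between the groups and was not called, though it was called with DESeq2 and in edgeR without the filter on low counts. Of 6 pancreas and intestine markers, Prss2, Ins1, Fabp2 and Cdx2 never exceeded 3 counts, while Cpa1 and Cela2a did in at least 1 library. The list summed to 0.401 to 0.540 CPM in AD1 OE and 0.405 to 0.716 in Control, below the level of Reg3b in every library. The cells that Reg3b reads came from were not tested.

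Flrt3 encodes a fibronectin and leucine-rich repeat transmembrane protein that binds Unc5 receptors and latrophilins, and it rises in DRG neurons after axotomy. It measured 32.1, 37.6, 33.5 and 36.7 CPM in AD1 OE and 28.8, 28.4, 30.1 and 25.0 in Control. The groups did not overlap, but the gap between the nearest libraries was small. The means were 35.0 ± 2.60 and 28.1 ± 2.18 CPM (log2 fold change 0.32, SE 0.07, 95% interval 0.16 to 0.47), and the edgeR adjusted p of 0.0184 did not reach the threshold of 0.005. With DESeq2 the adjusted p was 8.33e-04, and in edgeR without the filter on low counts it was 5.70e-04, and both passed, while its adjusted p rose to between 0.0505 and 0.0577 without AD1 OE replicate 2, AD1 OE replicate 4 or Control replicate 4. The log2 difference was 0.20 within females and 0.50 within males.

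Of the relatives and receptors of Flrt3, Unc5d was called. Flrt1 stood at 14.1 ± 2.09 and 12.5 ± 1.41 CPM and Flrt2 at 51.0 ± 3.19 and 52.6 ± 2.35 CPM in AD1 OE and Control (log2 fold changes 0.18 and -0.04, edgeR adjusted p = 0.429 and 0.721). The log2 ratio of Flrt3 to Flrt2 was higher in AD1 OE by 0.36 without overlap (exact permutation test, p = 0.0286, adjusted 0.105), and that of Flrt3 to Flrt1 by 0.15 with overlap (p = 0.457, adjusted 0.629 in the same exact test). The limits given for the Sox11 ratios hold for these ratios too. Unc5d, a netrin and FLRT receptor, fell to 6.05 ± 0.761 CPM in AD1 OE against a Control level of 12.8 ± 0.448 (log2 fold change -1.07, edgeR adjusted p = 1.85e-05), whereas Unc5a, Unc5b and Unc5c had log2 fold changes of -0.27, 0.16 and 0.06 and were not called. The latrophilin genes Adgrl1, Adgrl2 and Adgrl3 had log2 fold changes of -0.02, 0.10 and -0.14 and were not called.

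Csf1, the cytokine through which injured sensory neurons act on microglia and macrophages, measured 33.6, 34.5, 40.7 and 34.4 CPM in AD1 OE and 33.8, 31.9, 32.0 and 34.8 in Control. A single AD1 OE library stood above the rest, and the other 7 libraries lay between 31.9 and 34.8 CPM. The means of 35.8 ± 3.28 and 33.1 ± 1.40 CPM gave a log2 fold change of 0.11 (95% interval -0.03 to 0.25, edgeR adjusted p = 0.408), or 0.05 without that library, AD1 OE replicate 3. The log2 difference was 0.32 within females, where that library is the only one of AD1 OE, and -0.03 within males. Its receptor Csf1r stood at 28.5 ± 3.97 and 29.7 ± 1.60 CPM and Il34, the other ligand of that receptor, at 11.1 ± 1.28 and 10.3 ± 1.29 CPM, and neither was called. The 9 macrophage markers summed to 129 to 150 CPM in AD1 OE and 141 to 156 in Control, and none of them was called.

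Gadd45a, a stress-induced regulator of growth arrest and DNA repair, was at 3.98, 4.01, 3.63 and 4.64 CPM in AD1 OE and 4.27, 4.20, 3.93 and 4.29 in Control. The groups overlapped with means of 4.07 ± 0.420 and 4.18 ± 0.168 CPM (log2 fold change -0.04, 95% interval -0.27 to 0.19, edgeR adjusted p = 0.891). The log2 difference turned to 0.02 without AD1 OE replicate 3 and was -0.10 without AD1 OE replicate 4. It was -0.19 within females and -0.03 within males. Gadd45b and Gadd45g had log2 fold changes of -0.05 and 0.01 and were not called. Gadd45a shares 19.1% of its exon bases with the noncoding gene E230016M11Rik on the opposite strand.

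Gap43, a growth cone protein attached to the membrane, was the most abundant member. It measured 805, 754, 816 and 823 CPM in AD1 OE and 810, 815, 855 and 847 in Control, with overlap between the groups. Its means of 799 ± 31.2 and 832 ± 22.4 CPM gave a log2 fold change of -0.06 (95% interval -0.16 to 0.04, edgeR adjusted p = 0.549), or -0.03 without AD1 OE replicate 2, the lowest library. The log2 difference was -0.02 within females and -0.09 within males.

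Stmn4, a stathmin that binds tubulin, measured 119, 120, 141 and 117 CPM in AD1 OE and 119, 122, 121 and 105 in Control. A female AD1 OE library was the highest and the male Control library the lowest, and the remaining 6 lay between 117 and 122 CPM. The means of 124 ± 10.8 and 116 ± 7.96 CPM gave a log2 fold change of 0.10 (95% interval -0.04 to 0.23, edgeR adjusted p = 0.471). It was 0.04 without that AD1 OE library (replicate 3) and 0.05 without that Control library (replicate 4). Within sex the AD1 OE level was above Control in both, by 0.22 on the log2 scale in females and 0.18 in males, and with a sex score in the fit the log2 fold change was 0.22 with an adjusted p of 0.00801, short of the call. Its relatives Stmn1, Stmn2 and Stmn3 had log2 fold changes of -0.04, -0.03 and -0.10 and were not called.

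Sprr1a encodes a small proline-rich protein of cornified skin that becomes one of the most strongly induced proteins of regenerating DRG neurons. It had 1, 0, 2 and 0 counts in AD1 OE and 0, 0, 1 and 1 counts in Control, too few to be tested. No library exceeded the floor of 3 counts, which amounts to 0.0678 to 0.135 CPM depending on the library, so a level under that floor was not detectable at this depth. Epidermal markers were present at 8.64 to 19.8 CPM summed in AD1 OE and 8.81 to 10.4 CPM in Control. The value of 19.8 CPM was that of AD1 OE replicate 1, and the other AD1 OE libraries reached at most 10.6 CPM. Low levels of these transcripts were in both groups, and the cells they came from were not tested.

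**Figure D2:**
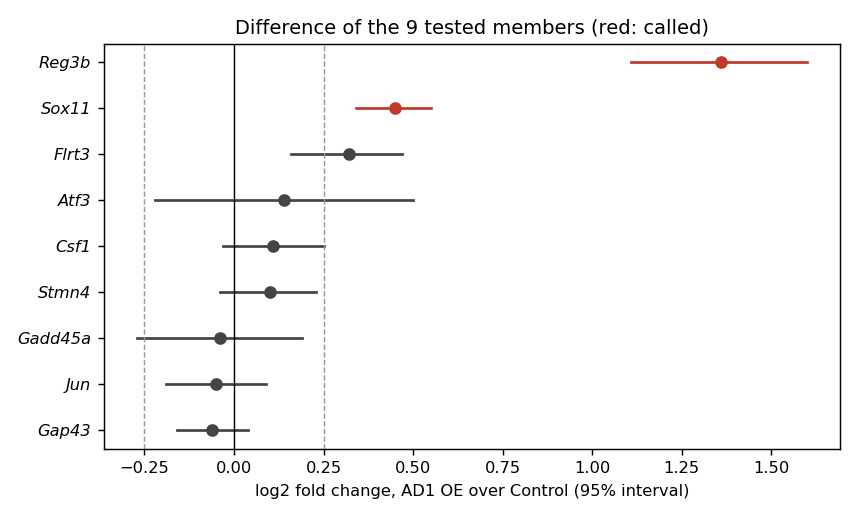
Log2 fold change of AD1 OE over Control for the 9 tested members on the horizontal axis, with the 95% interval of the edgeR fit as a line, called members in red, and dashed lines at the 0.25 limit of the call. Reg3b (1.36) and Sox11 (0.45) are called, Flrt3 (0.32) lies beyond the limit without being called, and the intervals of the other 6 include 0.

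Divided by exon length, the Control levels of the members spanned several orders of magnitude. In CPM per kb of exon, Gap43 was at 546, Stmn4 at 60.8, Jun at 20.5, Sox11 at 7.50, Csf1 at 6.27, Flrt3 at 5.77, Reg3b at 2.54, Gadd45a at 2.37, Atf3 at 1.32 and Sprr1a at 0.0210. Neighbours in that order were separated in every Control library except Csf1 from Flrt3 and Reg3b from Gadd45a. In AD1 OE, Reg3b stood at 6.50 CPM per kb and Gadd45a at 2.30, and Flrt3 stood at 7.19 against 5.77 in Control.

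**Figure D3:**
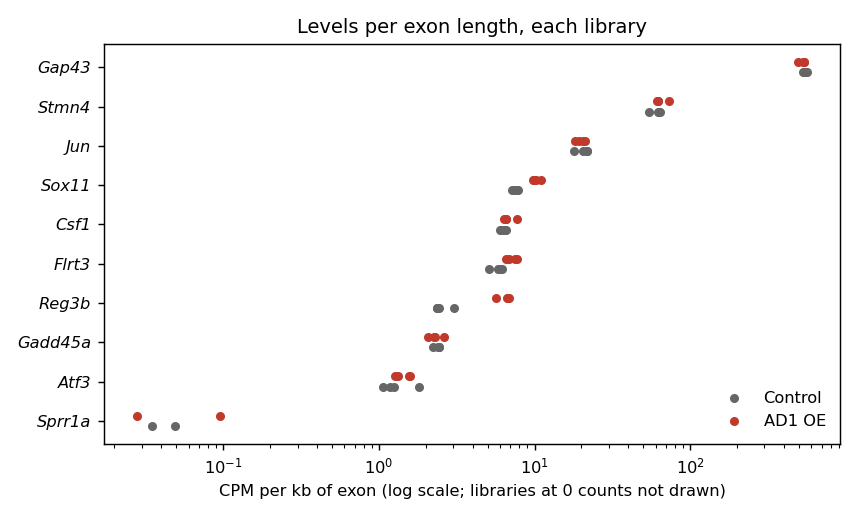
Level per exon length of each member in every library, in CPM per kb of exon on a log axis, with Control in grey and AD1 OE in red and libraries at 0 counts left out. The order runs from Gap43 (546 CPM per kb in Control) to Sprr1a (0.0210), and Reg3b shows the widest gap between the groups.

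The genes most like the called members across the 8 libraries were sought among 13947 tested genes whose mean reached 1 CPM, by Pearson's r of log2 CPM. Such values describe these libraries and follow in large part from the group difference, which all 8 points share. For Reg3b they were Bnc1 (r = 0.989), Tmem72 (0.987) and Dach1 (0.985), which were higher in AD1 OE by 1.10, 0.63 and 1.56 on the log2 scale. For Sox11 they were Rspo4 (r = 0.995), Ppp1r26 (0.991) and Thsd7b (0.985), with log2 fold changes of 0.54, 0.24 and 0.61.

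The members were set beside 100 further genes of the injury response, in 6 lists by role, of which 91 were tested. Of these, 3 were called higher (3.30%: Gal, Cd44 and Cdkn1a) and 4 lower (4.40%: Chl1, Adcyap1, Nts and Unc5d), and 84 were not called. Their median log2 fold change was -0.05, and 32 of the 91 were positive, against a median of 0.002 and 8956 positive of 17721 over all tested genes. Of all tested genes, 0.784% were called higher and 1.78% lower.

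Among 17 genes of JNK signalling and the AP-1 partners of Jun and Atf3, 16 were tested and none was called, with a median log2 fold change of -0.03. The scaffold genes Mapk8ip3 (433 ± 12.7 CPM in AD1 OE against 447 ± 11.1 in Control) and Mapk8ip1 (258 ± 12.2 and 300 ± 8.89 CPM) were the most abundant, with log2 fold changes of -0.05 and -0.22 and edgeR adjusted p of 0.605 and 0.00918. Mapk8ip3 shares 10.7% of its exon bases with the protein-coding gene Eme2 on the same strand. Map3k12 (Dlk), the kinase that starts the axon injury signal, had 96.1 ± 2.26 and 99.0 ± 1.48 CPM (log2 fold change -0.04, edgeR adjusted p = 0.527). Fos and Fosb, named like Map3k12 after their values were seen, were higher in AD1 OE without overlap, and Mapk8ip1 was lower without overlap. Among all tested genes, 13.0% did not overlap in either direction. Fos was at 4.81 ± 0.580 CPM in AD1 OE against 3.41 ± 0.297 in Control (log2 fold change 0.49, edgeR adjusted p = 0.0302). Fosb was at 1.90 ± 0.210 against 1.38 ± 0.190 CPM (0.45, adjusted p = 0.133). The summed level of 9 immediate early genes, which rise within minutes of handling or activity, was 97.9 to 116 CPM in AD1 OE and 98.0 to 118 in Control (exact permutation test, n = 4 each, p = 0.771). Fos and Fosb are small parts of that sum, so it does not show their difference.

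None of the 15 other injury-induced transcription factors was called, all of them having been tested, and their median log2 fold change was 0.003. The most abundant were Klf7 at 373 ± 12.0 and 386 ± 33.2 CPM and Stat3 at 269 ± 9.71 and 284 ± 7.57 CPM (log2 fold changes -0.05 and -0.08). Klf7 shares 39.3% of its exon bases with a noncoding gene on the other strand.

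Of 16 further growth cone and cytoskeletal genes, all tested, none was called and 1 had a positive log2 fold change, with a median of -0.06. Dpysl3 stood at 2496 ± 71.8 CPM in AD1 OE against 2670 ± 134 in Control (-0.10) and Stmn2 at 2292 ± 44.9 and 2341 ± 75.2 CPM (-0.03). Crmp1, Stmn3 and Tuba1a, named after their values were seen, were lower without overlap, and no gene of the list was higher without overlap. Of all tested genes, 13.0% had no overlap in either direction. Crmp1 was at 541 ± 39.1 against 633 ± 16.4 CPM (-0.23, edgeR adjusted p = 0.0264). Tuba1a shares 26.2% of its exon bases with the protein-coding gene Gm49450 on the same strand, so strand cannot separate reads from those bases. The 8 sensory neuron markers, which share Tubb3 with this list, summed to 5883 to 6687 CPM in AD1 OE and 6376 to 6577 in Control. The 6 fibroblast markers summed to 5777 to 6542 and 4947 to 6065 CPM. The part of these cell types in the result was not tested.

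Injury-induced secreted and surface proteins moved in both directions. Of 22 genes, 20 were tested, 2 were called higher and 3 lower, and the median log2 fold change was -0.10. Gal, the neuropeptide galanin that DRG neurons raise after axotomy, was at 83.9 ± 4.35 CPM in AD1 OE against 63.0 ± 5.07 in Control (log2 fold change 0.42, edgeR adjusted p = 9.59e-04). Cd44, the hyaluronan receptor, was at 331 ± 13.2 and 249 ± 10.5 CPM (0.41, adjusted p = 1.38e-04).

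The 3 called lower were Chl1, Adcyap1 and Nts. Chl1, a cell adhesion molecule of the L1 family, was at 161 ± 16.9 CPM in AD1 OE, against a Control level of 280 ± 11.7 (log2 fold change -0.79, edgeR adjusted p = 1.75e-05). Adcyap1, which encodes the neuropeptide PACAP, was at 90.2 ± 6.55 against 128 ± 5.59 CPM (-0.50, adjusted p = 9.51e-05). Nts, the neuropeptide neurotensin, was low in both groups and was at 0.897 ± 0.171 against 2.45 ± 0.366 CPM (-1.44, adjusted p = 3.65e-04).

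In the list of 12 stress and growth arrest genes, all tested, Cdkn1a was called higher and none lower, with a median log2 fold change of -0.02. Cdkn1a, the cell cycle inhibitor p21, stood at 96.1 ± 6.17 CPM in AD1 OE against 79.9 ± 2.70 in Control (log2 fold change 0.27, edgeR adjusted p = 0.00484), close to both limits of the call. It passed in 5 of 15 alternative fits, and of the fits that left out 1 library only in the one without AD1 OE replicate 4. The last list held the Reg and FLRT families and the receptors of the member ligands, where 12 of 18 genes were tested, Unc5d was called lower, none was called higher and the median was 0.02.

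**Figure D4:**
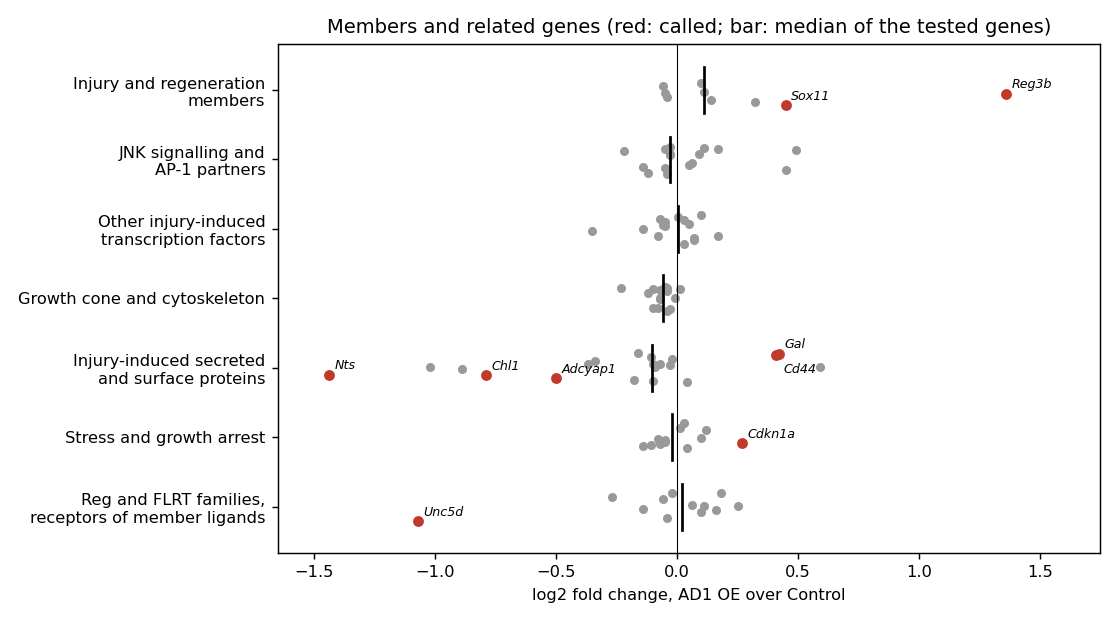
Log2 fold change of AD1 OE over Control for each tested gene of the members (top) and of the 6 related lists, 1 point per gene spread vertically for visibility, called genes in red with their names and a black bar at the median of each list. The lists centre between -0.10 and 0.11, and the called genes lie on both sides of 0.

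No tested marker was called in any of 11 lists, which include sensory neurons and immediate early genes, against 2.57% of all tested genes. None of the 6 pancreas and intestine markers was tested, and of the 6 epidermis markers 3 were. The lowest exact permutation p of a summed level was 0.0857, for fibroblasts (n = 4 each, adjusted 0.629 over the 11 lists). With 4 against 4 libraries a single list without overlap could not pass that adjustment, so the adjusted values do not decide whether a list differed. Glial markers summed to 1287 to 1613 CPM in AD1 OE and 1314 to 1598 in Control. Skeletal muscle markers ranged from 103 to 539 CPM in AD1 OE and from 124 to 351 CPM in Control, erythroid markers ranged from 80.8 to 287 and from 77.9 to 140 CPM, and spinal cord markers from 4.23 to 6.16 and from 3.27 to 16.7 CPM.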

How the data were processed

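The authors deposited 1 table of raw counts per gene for each of the 8 libraries. According to the study's methods and the submitters' processing notes, stranded mRNA libraries were demultiplexed with bcl2fastq 2.20.0.422, aligned to GRCm39 with STAR 2.7.8a and counted with featureCounts 2.0.1. The strand setting of the counting is not given in the sources used here. Counts were used as deposited, with gene symbols from GENCODE M21 for 52133 of 55414 Ensembl IDs. That annotation is on GRCm38 and served for names, chromosomes, exon lengths and overlaps only.

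Genes kept by edgeR's filterByExpr (17721) were fitted with TMM factors and the quasi-likelihood test (edgeR 4.0.16, R 4.3.3) on a model of group alone, and p-values were adjusted by Benjamini-Hochberg across the whole table. Alternatives were DESeq2 1.42.0, limma-voom (limma 3.58.1), other normalization, filters and thresholds, a sex score, a replicate block and leaving out each library. The smallest two-sided p of an exact permutation of 4 against 4 libraries is 0.0286. The members and lists were chosen with earlier results of these data known. Values within sex and ratios to paralogs were added after the data were seen. All 10 members are named, with each called gene of a related list (up to 6), or its 2 most abundant genes where none was called, and for each called member the 3 genes of most similar profile. Paralogs and receptors of members are also named, chosen after their values were seen. Promoter sequences are from RefSeq on GRCm38.p6.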

Additional observations from a re-analysis of the deposited data

Results flagged for a closer look

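In the 20 sets of 4 libraries given by 10 members and 2 groups, a library was marked when its gap to the nearest other library, divided by the range of its group, exceeded Dixon's 95% critical value for 4 libraries, which chance alone exceeds in about 5% of groups. Csf1 in AD1 OE replicate 3 was at 40.7 CPM against 33.6 to 34.5 CPM in the other AD1 OE libraries. Stmn4 in the same library was at 141 CPM against 117 to 120 CPM. Reg3b in AD1 OE replicate 4 was at 6.48 CPM against 7.64 to 7.84 CPM. Reg3b in Control replicate 3 was at 3.46 CPM against 2.68 to 2.77 CPM. AD1 OE replicate 3 was the only female library of its group. The female Control libraries, replicates 1 to 3, were at 33.8, 31.9 and 32.0 CPM for Csf1 and at 119, 122 and 121 CPM for Stmn4. AD1 OE replicate 3 also had the highest summed skeletal muscle markers (539 CPM) and sensory neuron markers (6687 CPM) of all libraries. What set this library apart was not tested.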

How the results depend on the processing

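Reg3b and Sox11 were called in all 15 alternative fits, except that the stricter rule of an adjusted p under 0.05 with a log2 fold change beyond 1 left 1 member, Reg3b. Reg3b ranged from 1.32 to 1.45 and Sox11 from 0.42 to 0.51 in log2 fold change. Flrt3 was called with DESeq2 and without the low-count filter. Gadd45a ranged from -0.10 to 0.02 over the fits that left out a library and changed sign without AD1 OE replicate 3. Of related genes, Gal missed the call (adjusted p 0.00510) when AD1 OE replicate 1 was left out. Related genes called numbered 7, against 12 at an adjusted p under 0.05 at any fold and 3 with the stricter fold. All genes called numbered 455, against 747 without the filter, 1161 at an adjusted p under 0.05 at any fold and 129 with the stricter fold, and ranged from 289 (without AD1 OE replicate 1) to 420 over the fits that left out a library. DESeq2 called 658 and the fit with the sex score 345.

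With the replicate block, 348 genes, 2 members and 6 related genes were called. The deviations of same-numbered libraries correlated at -0.00991, -0.0541, -0.035 and 0.313, and 2 of 8 libraries correlated best with their own number, so the numbers were not taken to pair the samples. Depth limits Sprr1a and the other Reg genes, which stayed at or near 0 counts.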
